A study of Mus musculus with 12 samples.

Results

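Triglyceride synthesis in mouse liver was described through 10 genes that were chosen by name: Gpam, Gpat4, Agpat2, Agpat3, Lpin1, Lpin2, Lpin3, Mogat1, Dgat1 and Dgat2. All 10 were among the 48537 genes of the deposited expression table, and 9 of them passed the filter on low values that left 17957 genes for testing. The livers formed 3 groups of 4. The first was labelled as double knockout for the REV-ERBs with wild-type REV-ERBalpha put back (titles DKO_REV-ERBalpha-WT, here re-expression livers). The second carried the label DKO_YFP (here livers labelled DKO). The third was labelled YFP with a wildtype genotype (here control livers). All were taken at ZT10, that is at zeitgeber time 10, counted in hours from lights on. The table's own column names put Cre in the DKO columns and not in the control columns, so effects of the deletion and of Cre cannot be told apart. The columns of the re-expression livers name WT but neither Cre nor DKO. They were tied to the titles by WT and the replicate number, so their place in that group is inferred from names. Sex, age, the way Cre and REV-ERBalpha were delivered, and the cell types that received them are not given in the sources used here.

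Nr1d1 encodes REV-ERBalpha and Nr1d2 encodes REV-ERBbeta, heme-binding nuclear receptors that silence their target genes and form a feedback limb of the circadian clock. Liver makes triglyceride mainly by the glycerol phosphate pathway. A glycerol phosphate acyltransferase (Gpam in mitochondria, Gpat4 in the endoplasmic reticulum) adds the first acyl chain, an acylglycerol phosphate acyltransferase (Agpat2, Agpat3) adds the next and gives phosphatidic acid, and a lipin (Lpin1, Lpin2, Lpin3) removes the phosphate to give diacylglycerol. Dgat1 and Dgat2 then add the last chain. Mogat1 makes diacylglycerol by another route, from monoacylglycerol. Lipin 1 is also known as a transcriptional coactivator.

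The promoter sequences of 3 members are shown first: Lpin2 and Agpat2, which passed the test below, and Lpin1, the other main lipin gene of these livers. Lpin1 was not called and was picked for its balance with Lpin2, after the values were known. Agpat3, whose window is not printed, had a smaller p than Lpin1 in livers labelled DKO against control livers. Each is the 250 bases before an annotated start in RefSeq (GRCm38.p6), read 5′ to 3′ on the strand of the gene, and capitals mark a motif match. The windows lie at chr17:71183282-71183531 on the plus strand for Lpin2, at chr2:26604418-26604667 on the minus strand for Agpat2 and at chr12:16610967-16611216 on the minus strand for Lpin1. Lpin2 has 3 annotated starts in that table, and the window of the first is printed because it is the one of the 3 with a match.
Lpin2: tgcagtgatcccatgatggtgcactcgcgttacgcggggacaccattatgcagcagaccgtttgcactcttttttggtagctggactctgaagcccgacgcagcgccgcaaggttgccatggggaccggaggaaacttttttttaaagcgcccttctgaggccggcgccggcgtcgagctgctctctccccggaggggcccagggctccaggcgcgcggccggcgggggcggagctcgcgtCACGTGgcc
Agpat2: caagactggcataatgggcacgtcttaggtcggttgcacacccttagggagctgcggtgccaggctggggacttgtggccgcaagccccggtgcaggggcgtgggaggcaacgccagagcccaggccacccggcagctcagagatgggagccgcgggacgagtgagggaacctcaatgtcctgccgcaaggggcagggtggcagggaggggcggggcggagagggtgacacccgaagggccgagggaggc
Lpin1: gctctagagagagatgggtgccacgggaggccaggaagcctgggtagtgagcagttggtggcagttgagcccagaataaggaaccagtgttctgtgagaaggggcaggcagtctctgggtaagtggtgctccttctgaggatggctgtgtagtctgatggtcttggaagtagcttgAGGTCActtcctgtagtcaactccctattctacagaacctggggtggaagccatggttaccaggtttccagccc
The capitals in the Lpin2 window are CACGTG, the E-box bound by CLOCK and BMAL1, 9 bases before the start. The capitals in the Lpin1 window are AGGTCA, the core of the site shared by REV-ERB and ROR receptors, 74 bases before the start. No searched motif was found in the Agpat2 window. Of 32851 promoter windows of this length in the mouse table, 6.02% held CACGTG and 14% held AGGTCA on either strand. These are shares of single windows. A gene with 3 windows, such as Lpin2, has more chances of a match than these shares show. The search also covered TTATGTAA, the D-box (0.819% of windows), and TCACNCCAC, a site of SREBP (1.05%). RefSeq windows were found for 7 of the 10 genes, 11 windows in all, and not for Dgat1, Dgat2 and Gpat4. A paired site, in which the core shared by REV-ERB and ROR receptors is repeated after a short gap, was searched as well. The paired site was in 3 of the 32851 windows (0.00913%) and in none of these 11. The only other match was AGGTCA, 196 bases before the second annotated start of Gpam. A match describes letters in a window and does not show binding.

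The livers gave 5621667 to 6906221 reads assigned to genes per library, recovered from the deposited values as described under the processing, and 22240 to 23289 genes had a read. Expression is given as TPM, a read-based abundance corrected for gene length and library size. The length is that of all annotated exons of a gene together (12233 bases for Lpin2), not of the transcripts present. Levels, shares and ratios set side by side between genes therefore depend on the annotation. Differences are on the log2(TPM + 1) scale with the standard error (SE) of limma's moderated fit over all 12 livers, and a gene is called when its Benjamini-Hochberg adjusted p over the 17957 genes is under 0.05. Nr1d1 averaged 191 ± 22.4 TPM in re-expression livers, 82.5 ± 7.39 in livers labelled DKO and 68.7 ± 5.53 in control livers (SD, n = 4 each). Nr1d1 was thus called higher after re-expression than in livers labelled DKO (log2 difference 1.20 ± 0.10, SE, limma adjusted p = 4.52e-04), while livers labelled DKO were not lower than control livers (log2 difference 0.26 ± 0.10, SE, limma adjusted p = 0.173). The labels do not say which exons were deleted. Whether reads from remaining exons, or the tie of columns to groups by name, have a part in this level was not tested. Nr1d2 averaged 97.7 ± 15.1 TPM in re-expression livers, 90.4 ± 7.91 in livers labelled DKO and 96.6 ± 14.9 in control livers (SD, n = 4 each), and the log2 difference of livers labelled DKO from control livers was -0.09 (limma adjusted p = 0.792). Neither REV-ERB gene was thus called lower in the livers labelled DKO. The hepatocyte markers summed to between 41535 and 47124 TPM in all 12 livers, and 2 of 7 were called higher in livers labelled DKO than in control livers. In that comparison 2.99% of all tested genes were called higher. Skeletal muscle markers, in the main Acta1, summed to 29.3 TPM in re-expression replicate 4 and to 0 to 1.54 TPM in the other 11 livers.

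Among the 10 enzymes, Lpin2 was lower and Agpat2 was higher in livers labelled DKO than in control livers, and no other member was called in any comparison. In livers labelled DKO against control livers 1 of 9 tested members was called higher, where 2.99% of all tested genes were, and 1 of 9 was called lower, where 2.34% were. The groups did not overlap for 3 of the 9 (Agpat2 and Agpat3 higher, Lpin2 lower), against 11.5% of all tested genes. At an unadjusted p under 0.05, 4 of the 9 were counted, beside 18.4% of all tested genes. The median log2 difference of the 9 was 0.08, beside 0.00 over all tested genes, and 5 of the 9 differences were positive. In re-expression livers against livers labelled DKO, limma called 0 of 9 members. Of all tested genes 0.0278% were called higher and 0.0446% lower in that comparison, and the groups did not overlap for 4.25% of all genes and for 0 of the 9 members. At an unadjusted p under 0.05, 1 member (Lpin2) was counted, beside 6.19% of all tested genes, and limma's voom on the recovered reads also called 0. In re-expression livers against control livers, limma called 0 of 9 members, where 1.16% of all tested genes were called higher and 0.663% lower. There, 4 members had an unadjusted p under 0.05, as did 12.5% of all tested genes, and voom called 1 member (Lpin2). The groups did not overlap for 2 of the 9 (Gpat4 and Lpin2, both lower), against 7.28% of all tested genes. The medians over the 9 were 0.05 in that comparison and -0.01 in re-expression livers against livers labelled DKO. The comparisons share livers, so they are not independent of each other.

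**Figure D1:**
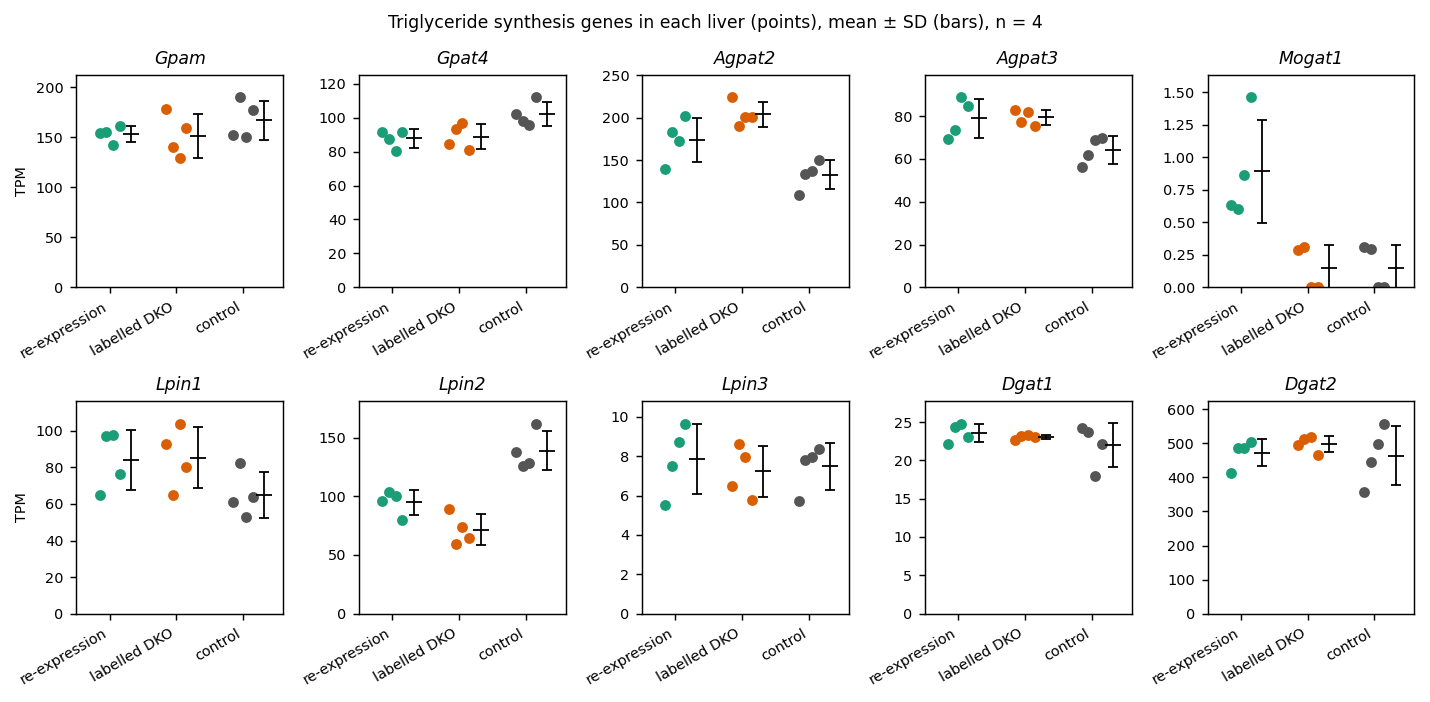
TPM of each of the 10 enzymes in every liver, with re-expression livers on the left, livers labelled DKO in the middle and control livers on the right of each panel; points are livers and bars are means with SD (n = 4). Lpin2 sits between 59.6 and 89.4 TPM in livers labelled DKO and between 126 and 162 TPM in control livers, while Dgat2 overlaps throughout.

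The lipins are the phosphatidic acid phosphatases of the pathway, and 1 of them had the smallest p of the 9 tested members. Lpin2 (chr17:71182560-71249817, plus strand, mm10, a protein-coding gene) had 96.1, 104, 100 and 80.1 TPM in re-expression livers 1 to 4. It had 89.4, 59.6, 73.6 and 64.4 TPM in livers labelled DKO and 138, 126, 128 and 162 TPM in control livers. Every liver of the other 2 groups was below every control liver, and re-expression livers overlapped livers labelled DKO only through the liver labelled DKO at 89.4. Lpin2 fell in livers labelled DKO to 71.7 ± 13.1 TPM, against 139 ± 16.6 TPM in control livers (SD, n = 4 each), which was 48.3% less. The log2 difference was -0.95 ± 0.13 (SE), with a 95% interval of -1.24 to -0.66 and a limma adjusted p of 0.00168, and Lpin2 was number 140 of the 17957 genes by p. Re-expression livers averaged 95.1 ± 10.6 TPM (SD, n = 4). Their log2 difference from livers labelled DKO was 0.41 (95% interval 0.12 to 0.70, limma adjusted p = 0.494) and that from control livers was -0.54 (95% interval -0.83 to -0.25, limma adjusted p = 0.0684). The second of these crossed the threshold when livers labelled DKO lost replicate 1 (adjusted p = 0.0415). Without re-expression replicate 4, the liver with muscle markers, these log2 differences were 0.49 from livers labelled DKO and -0.46 from control livers, neither of them called. Lpin2 was covered by 1687 to 4272 reads per liver.

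Lpin1 (chr12:16535669-16610966, minus strand) had 64.8, 97.5, 97.9 and 76.2 TPM in re-expression livers, 93.0, 64.9, 104 and 80.3 TPM in livers labelled DKO and 61.0, 82.5, 52.7 and 64.0 TPM in control livers. The groups overlapped, and livers of one group differed widely. The log2 difference of livers labelled DKO from control livers was 0.39 ± 0.18 (SE, 95% interval -0.01 to 0.78, limma adjusted p = 0.289). Lpin3 (chr2:160880670-160906002, plus strand), the lipin with the lowest level, ranged over 5.52 to 9.66 TPM in re-expression livers, 5.77 to 8.64 in livers labelled DKO and 5.72 to 8.38 in control livers. Its log2 difference of livers labelled DKO from control livers was -0.05 (95% interval -0.43 to 0.34, limma adjusted p = 0.931), on 45 to 85 reads per liver.

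The balance between Lpin1 and Lpin2 separated all 3 groups. Lpin1 over Lpin2 TPM was 0.674 to 0.979 in re-expression livers, 1.04 to 1.41 in livers labelled DKO and 0.394 to 0.652 in control livers, with no overlap in any pair of groups. Its means were 0.885 ± 0.142, 1.20 ± 0.166 and 0.475 ± 0.12 (SD, n = 4 each) in that order of groups. Lpin2 gave 51.1 ± 4.52% of the summed lipin TPM in re-expression livers, 43.7 ± 3.2% in livers labelled DKO and 65.7 ± 4.95% in control livers. The sum over the lipins was 187 ± 24.2, 164 ± 27.1 and 211 ± 19.5 TPM (SD, n = 4 each) in the same order, and it overlapped between all pairs of groups. The ratio was formed after the values of its members were known and is given as a description without a test. Lpin2 alone already set both other groups apart from control livers. How often ratios of other genes separate the groups was not counted.

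**Figure D2:**
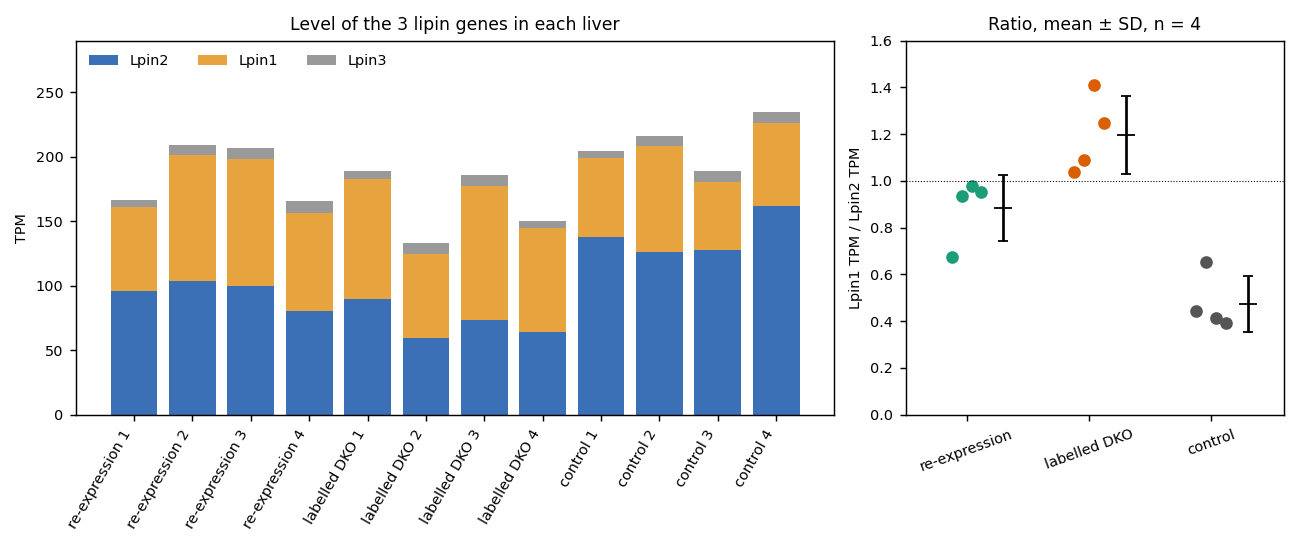
On the left, stacked bars give the TPM of Lpin2, Lpin1 and Lpin3 in each liver, and on the right points give the Lpin1 over Lpin2 ratio per liver with the mean and SD (n = 4) and a dotted line at 1, ordered as re-expression livers, livers labelled DKO and control livers. The Lpin1 over Lpin2 ratio lies at 1.04 or above in livers labelled DKO, at 0.674 to 0.979 in re-expression livers and at 0.652 or below in control livers.

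Agpat2 (chr2:26593057-26604417, minus strand), the acyltransferase whose loss causes congenital generalized lipodystrophy in humans, had 140, 183, 173 and 202 TPM in re-expression livers. It had 224, 190, 201 and 201 TPM in livers labelled DKO and 109, 134, 137 and 150 TPM in control livers. Livers labelled DKO lay above control livers without overlap, and re-expression livers overlapped both groups. Agpat2 rose in livers labelled DKO to 204 ± 14.6 TPM, against 133 ± 17.1 TPM in control livers (SD, n = 4 each), 1.54 times as much. The log2 difference was 0.62 ± 0.12 (SE), with a 95% interval of 0.36 to 0.89 and a limma adjusted p of 0.0122. Re-expression livers averaged 174 ± 25.9 TPM. Their log2 difference was -0.24 from livers labelled DKO (95% interval -0.50 to 0.03, limma adjusted p = 0.891) and 0.39 from control livers (95% interval 0.12 to 0.65, limma adjusted p = 0.161). The difference from livers labelled DKO ranged over -0.31 to -0.13 with the alternatives, and the value nearest 0 came without re-expression replicate 1. Egfl7 lies on the opposite strand and shares 64 exonic bases with Agpat2, 3.0% of its exons. Whether the counting kept strands apart is not given. Egfl7 was at 23.2 ± 3.61, 24.4 ± 5.47 and 22.3 ± 3.46 TPM in re-expression livers, livers labelled DKO and control livers, and its log2 difference of livers labelled DKO from control livers was 0.11 (limma adjusted p = 0.787). Its part in the Agpat2 difference was not tested.

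Agpat3 (chr10:78269178-78352489, minus strand) had 69.5, 73.3, 88.8 and 84.6 TPM in re-expression livers, 83.0, 77.5, 81.8 and 75.6 TPM in livers labelled DKO and 56.1, 61.7, 68.9 and 69.7 TPM in control livers. Livers labelled DKO were all above control livers, and the lowest re-expression liver was just under the highest control liver. The log2 difference of livers labelled DKO from control livers was 0.31 ± 0.09 (SE, 95% interval 0.10 to 0.52), and its limma adjusted p of 0.093 missed the threshold. The sum of Agpat2 and Agpat3 was 209 to 286 TPM in re-expression livers, 267 to 307 TPM in livers labelled DKO and 165 to 220 TPM in control livers. Agpat2 gave 68.7 ± 2.63%, 71.9 ± 1.05% and 67.4 ± 1.18% of that sum (SD, n = 4 each) in the same order.

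Markers of other liver cell types were measured beside these differences. Summed TPM of 7 stellate cell markers was 225 to 284 in re-expression livers, 276 to 298 in livers labelled DKO and 167 to 227 in control livers. Of the 7, 4 were called higher in livers labelled DKO than in control livers, where 2.99% of all tested genes were. Summed TPM of 6 sinusoidal endothelial markers was 124 to 191, 180 to 227 and 158 to 172 in the same order, with 0 of 6 called by limma. The adipocyte markers summed to 6.93 to 9.25, 6.63 to 9.32 and 5.91 to 9.62 TPM, with Adipoq and Lep listed at 0 in every liver. Red blood cell genes summed to 372 to 835, 400 to 686 and 276 to 382 TPM in the same order, with 0 of 5 called by limma. Kupffer cell markers (249 to 841, 295 to 360 and 292 to 775 TPM) and cholangiocyte markers (79.4 to 106, 76.7 to 86.0 and 74.5 to 105 TPM) overlapped in all pairs of groups. Among these, 1 of 5 cholangiocyte markers was called higher both in re-expression livers and in livers labelled DKO than in control livers, and 1 of 7 stellate markers was called higher in re-expression livers than in control livers. The shares of all tested genes called higher were 1.16% for re-expression livers and 2.99% for livers labelled DKO, each against control livers. The part of the stellate, endothelial and red blood cell genes in the differences of Lpin2 and Agpat2 was not tested. In bulk liver, fewer cells of a type and less RNA per cell cannot be told apart.

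Gpam and Gpat4, the members that start the pathway, were not called in any comparison. Gpat3, a related enzyme of the same step that is not among the 10, was called and is given with the other synthesis genes below. Gpam (chr19:55067268-55127238, minus strand) had 154, 155, 142 and 161 TPM in re-expression livers, 178, 140, 129 and 159 TPM in livers labelled DKO and 152, 190, 150 and 177 TPM in control livers. The groups overlapped. The log2 difference of livers labelled DKO from control livers was -0.14 ± 0.11 (SE, 95% interval -0.38 to 0.09, limma adjusted p = 0.534), and it ranged over -0.23 without replicate 1 to -0.07 without replicate 3 of the livers labelled DKO. Gpat4 (chr8:23171265-23208346, minus strand) had 91.7, 87.6, 80.1 and 91.7 TPM in re-expression livers, 84.5, 93.4, 97.0 and 80.9 TPM in livers labelled DKO and 102, 98.1, 95.4 and 112 TPM in control livers. Re-expression livers were all below control livers, while livers labelled DKO overlapped control livers through 1 liver at 97.0 TPM. The log2 difference was -0.21 ± 0.08 (SE) for re-expression livers against control livers (limma adjusted p = 0.266) and -0.20 ± 0.08 (SE) for livers labelled DKO against control livers (limma adjusted p = 0.211). Gpam gave 63.6 ± 0.618%, 62.8 ± 5.13% and 62.0 ± 2.71% of the sum of Gpam and Gpat4 in re-expression livers, livers labelled DKO and control livers (SD, n = 4 each), overlapping in all pairs.

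The diacylglycerol acyltransferases close the pathway, and Dgat2 was the most abundant of the 10 genes in every group. Dgat2 (chr7:99153658-99182719, minus strand) had 413, 486, 487 and 505 TPM in re-expression livers, 494, 513, 520 and 465 TPM in livers labelled DKO and 356, 445, 497 and 558 TPM in control livers. Control livers spanned the range of the other groups. The log2 difference of livers labelled DKO from control livers was 0.12 ± 0.12 (SE, 95% interval -0.14 to 0.38, limma adjusted p = 0.669), and that of re-expression livers from livers labelled DKO had a 95% interval of -0.34 to 0.19. Dgat1 (chr15:76502015-76511953, minus strand) had 22.2 to 24.8 TPM in re-expression livers, 22.7 to 23.3 in livers labelled DKO and 17.9 to 24.2 in control livers. Its log2 difference of livers labelled DKO from control livers was 0.08 ± 0.09 (SE, 95% interval -0.13 to 0.28, limma adjusted p = 0.734). Dgat2 gave 95.2 ± 0.304%, 95.6 ± 0.2% and 95.3 ± 1.32% of the DGAT sum in the same order of groups (SD, n = 4 each).

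**Figure D3:**
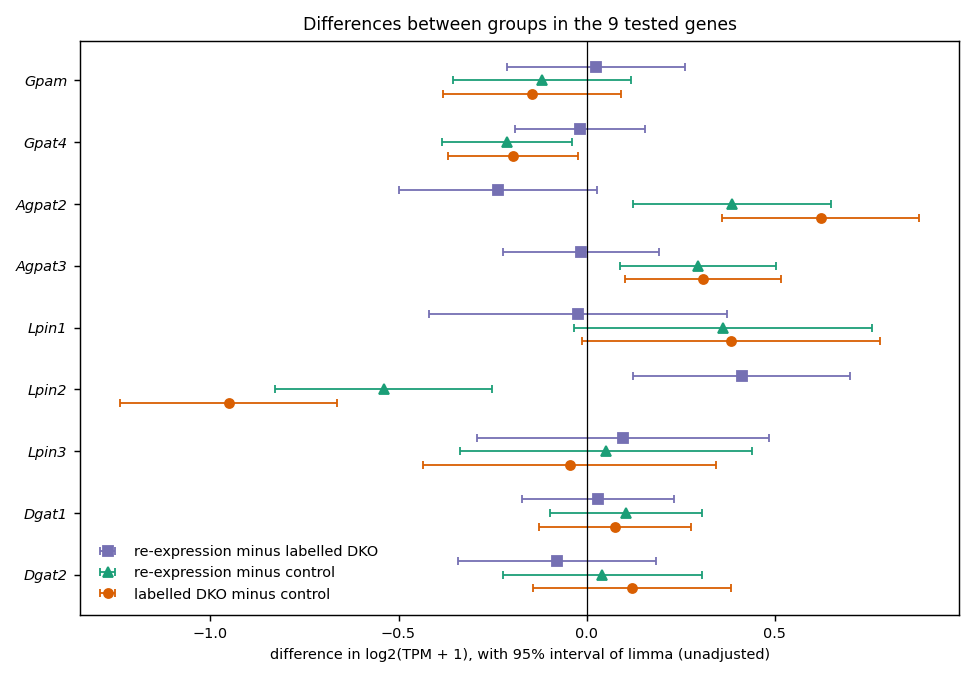
Log2 differences of the 9 tested enzymes with 95% intervals, on the log2(TPM + 1) scale, for the 3 comparisons. Called differences are Lpin2 at -0.95 and Agpat2 at 0.62, both in livers labelled DKO against control livers, and the intervals of Gpam, Lpin1, Lpin3, Dgat1 and Dgat2 include 0 in every comparison.

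Ranked by mean TPM, Lpin2 changed its place most among the enzymes of the glycerol phosphate pathway. In control livers it was the third, after Dgat2 at 464 TPM and Gpam at 167 TPM and just above Agpat2 at 133 TPM, and it overlapped Gpam and Agpat2. In livers labelled DKO it was the seventh, below Agpat2 at 204, Gpam at 151, Gpat4 at 88.9, Lpin1 at 85.4 and Agpat3 at 79.5 TPM, and it overlapped the last 3 of these. In re-expression livers it was the fourth, at 95.1 TPM, and it overlapped Gpat4 at 87.8, Lpin1 at 84.1 and Agpat3 at 79.1 TPM.

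Mogat1 (chr1:78510991-78538173, plus strand), the monoacylglycerol acyltransferase, was close to the limit of detection and did not enter the fit. It had 2, 2, 3 and 5 reads in re-expression livers, 1, 1, 0 and 0 in livers labelled DKO and 1, 1, 0 and 0 in control livers. These reads correspond to 0.631, 0.604, 0.865 and 1.46 TPM in re-expression livers, at most 0.313 TPM in livers labelled DKO and at most 0.307 TPM in control livers. The 12 reads of the re-expression group stood against 2 in each of the other groups. An exact two-sided permutation test of the TPM values set re-expression livers against each other group and gave p = 0.0286 both times. That is the smallest p that the 70 assignments of 4 against 4 allow, and any 2 groups of 4 without overlap give it. Of all tested genes, 4.25% did not overlap between re-expression livers and livers labelled DKO. The share was 7.28% between re-expression livers and control livers. The p is not adjusted for other genes. With no filter on low values limma gave adjusted p = 0.333 and 0.0905 for these 2 comparisons over 29435 genes. Mogat2, the intestinal form, was chosen for mention after its values were seen: it had 5 reads in re-expression livers, 3 in livers labelled DKO and 14 in control livers. For Mogat2 the same permutation test gave p = 0.0286 in both comparisons with control livers, which were the higher group. At 0 to 5 reads per liver, neither gene supports a fold change.

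Of 18 other genes of glycerolipid synthesis, 16 were tested, and Mogat2 and Cds1 were too low. In livers labelled DKO against control livers 1 of the 16 was called higher (Acsl1) and 2 lower (Gpat3 and Gpd1l), with a median log2 difference of -0.04. In that comparison 2.99% of all tested genes were called higher and 2.34% lower. There, 8 of the 16 had an unadjusted p under 0.05, as did 18.4% of all tested genes. Acsl1, which activates long-chain fatty acids to acyl-CoA, averaged 580 ± 48.5 TPM in re-expression livers, 577 ± 121 in livers labelled DKO and 340 ± 47.6 in control livers (SD, n = 4 each). It was higher by 0.75 ± 0.14 (log2, SE, limma adjusted p = 0.00952) in livers labelled DKO than in control livers. It was also higher by 0.78 ± 0.14 in re-expression livers than in control livers (limma adjusted p = 0.0154). That second call was lost without re-expression replicate 2 (0.0507), re-expression replicate 4 (0.054) or control replicate 3 (0.0503) and with a replicate block (0.0537). Gpat3, a further glycerol phosphate acyltransferase, averaged 6.12 ± 1.70 TPM in re-expression livers, 2.67 ± 1.07 in livers labelled DKO and 7.94 ± 2.16 in control livers. Gpat3 was lower by a log2 difference of -1.30 ± 0.25 (SE, limma adjusted p = 0.0124) in livers labelled DKO than in control livers. Gpd1l, related to the enzyme that makes glycerol phosphate, was at 23.9 ± 0.91, 21.8 ± 1.91 and 28.7 ± 3.66 TPM in re-expression livers, livers labelled DKO and control livers. Its call (log2 difference -0.38, limma adjusted p = 0.0488) was lost in 17 of 20 alternative analyses. Between re-expression livers and livers labelled DKO limma called 0 of the 16, with 1 at an unadjusted p under 0.05 (Gpat3, log2 difference 0.98, adjusted p = 0.304) and 0 called by voom, and the median was 0.08. Of all tested genes 6.19% had an unadjusted p under 0.05 there. Against control livers, re-expression livers had 1 of 16 called higher (Acsl1) and 0 lower, with 4 at an unadjusted p under 0.05 beside 12.5% of all tested genes and a median of -0.04. In that comparison 1.16% of all tested genes were called higher and 0.663% lower. Gk, glycerol kinase, was at 57.3 TPM in re-expression livers, 51.1 in livers labelled DKO and 47.4 in control livers and was not called.

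Of 12 regulators of lipid synthesis, all tested, 1 was called higher (Insig2) and 2 lower (Ppara and Pparg) in livers labelled DKO than in control livers, with a median log2 difference of -0.08. In that comparison 2.99% of all tested genes were called higher and 2.34% lower. There, 4 of the 12 had an unadjusted p under 0.05, as did 18.4% of all tested genes. Insig2, which holds the SREBP precursor in the endoplasmic reticulum, averaged 198 ± 48.6 TPM in re-expression livers, 233 ± 21.1 in livers labelled DKO and 55.4 ± 9.42 in control livers (SD, n = 4 each). Its log2 difference from control livers was 2.06 ± 0.16 in livers labelled DKO (limma adjusted p = 2.86e-05) and 1.80 ± 0.16 in re-expression livers (limma adjusted p = 1.62e-04). Ppara, the receptor that drives fatty acid oxidation genes, averaged 210 ± 21.3 TPM in re-expression livers, 160 ± 8.76 in livers labelled DKO and 256 ± 8.5 in control livers. Ppara was lower in livers labelled DKO than in control livers by a log2 difference of -0.67 ± 0.08 (SE, limma adjusted p = 3.94e-04). Re-expression livers lay above livers labelled DKO without overlap for Ppara (log2 difference 0.38, limma adjusted p = 0.129). The same held for Pparg and, among the synthesis genes, for Gpat3, and these groups did not overlap for 4.25% of all tested genes. For Ppara the log2 difference of re-expression livers from control livers was -0.29 (limma adjusted p = 0.0863), which crossed the threshold without re-expression replicate 1 (0.0494). Pparg, a receptor that drives lipid storage genes, was at 11.7 ± 0.4, 9.47 ± 1.77 and 16.2 ± 3.8 TPM in the same order, and its call (log2 difference -0.70, limma adjusted p = 0.0379) was lost in 13 of 20 alternatives. Srebf1, which encodes the main SREBP of fatty acid synthesis, averaged 88.2 ± 35.6 TPM in re-expression livers, 124 ± 36.4 in livers labelled DKO and 180 ± 50.3 in control livers. Its log2 difference of re-expression livers from control livers was -1.07 ± 0.30 (SE, limma adjusted p = 0.116), and voom called it (adjusted p = 0.0322). Among the regulators, limma called 0 of the 12 in re-expression livers against livers labelled DKO, with 2 at an unadjusted p under 0.05 and 0 called by voom. Of all tested genes 6.19% had an unadjusted p under 0.05 there. Against control livers, re-expression livers had 1 of 12 called higher (Insig2) and 0 lower, with 6 at an unadjusted p under 0.05 beside 12.5% of all tested genes. In that comparison 1.16% of all tested genes were called higher and 0.663% lower. Ctdnep1 and Cnep1r1, which form the phosphatase that acts on lipins, were not called in any comparison.

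**Figure D4:**
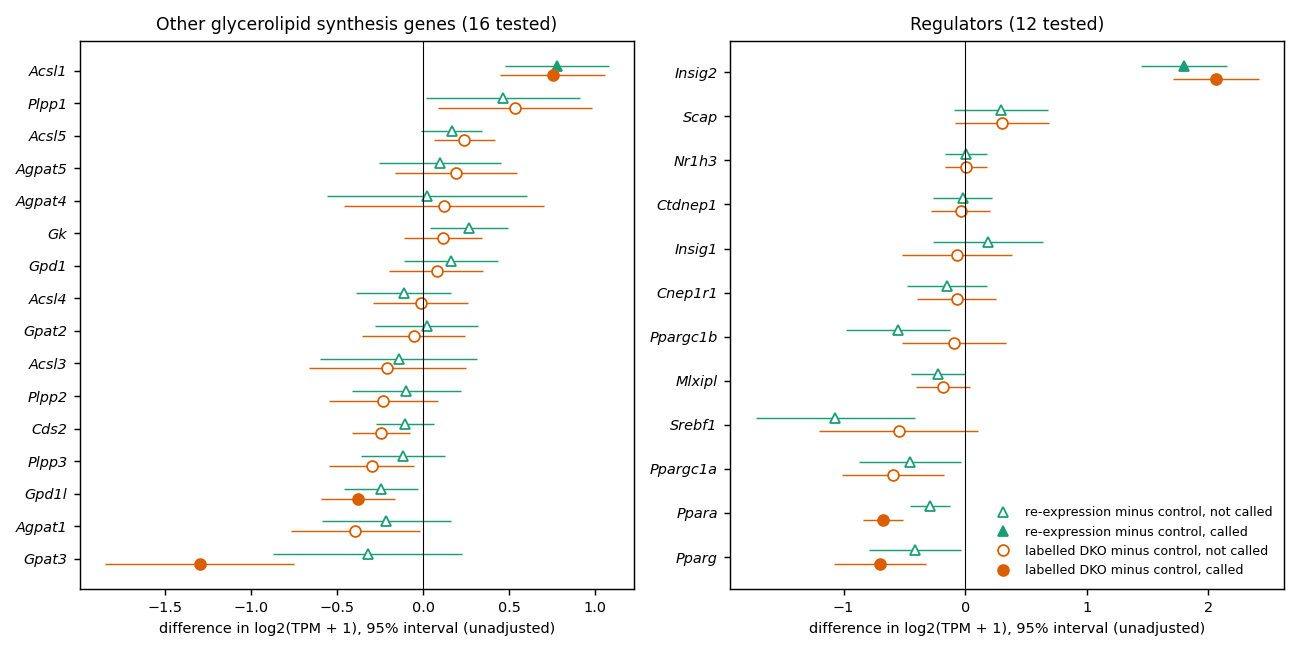
Differences in log2(TPM + 1) from control livers, with unadjusted 95% intervals, for the 16 tested glycerolipid synthesis genes (left) and the 12 regulators (right), with triangles for re-expression livers, circles for livers labelled DKO and filled symbols for called genes. Insig2 at 2.06 and 1.80 and Acsl1 at 0.75 and 0.78 stand above 0 in both comparisons with control livers, and Gpat3 stands at -1.30 in livers labelled DKO against control livers.

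The genes whose pattern over the 12 livers was most like that of Lpin2, by Pearson r of log2(TPM + 1) among all tested genes, were Sh3yl1 (r = 0.975), Slc16a12 (0.914), Rab3d (0.911), Dhrs7 (0.911) and Tgm1 (0.911). The most opposite were Cyp8b1 (r = -0.934), Npas2 (-0.932) and Cited2 (-0.927). The 3 groups share the differences between their means in such an r, so after taking the group means away r was 0.89 for Sh3yl1, 0.762 for Rab3d, 0.556 for Tgm1, 0.409 for Slc16a12 and 0.275 for Dhrs7. It was -0.684 for Cyp8b1, -0.639 for Npas2 and -0.553 for Cited2. Sh3yl1 averaged 7.51 ± 1.17 TPM in re-expression livers, 5.78 ± 1.35 in livers labelled DKO and 11 ± 0.928 in control livers. Cyp8b1, the sterol 12-alpha-hydroxylase of bile acid synthesis, averaged 603 ± 136, 762 ± 125 and 314 ± 58.5 TPM (SD, n = 4 each) in the same order. Npas2, a clock activator repressed by REV-ERBs, averaged 2.48 ± 0.613 TPM in re-expression livers, 13.0 ± 2.3 in livers labelled DKO and 0.0713 ± 0.0943 in control livers. The correlations are descriptions over livers that share their groups, without a test.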

How the data were processed

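Liver RNA of 12 mice was sequenced after a strand-specific total RNA preparation, per the labels' protocols. The submitters' processing notes name STAR 2.7.1a with build mm10, SAMtools 1.9, bcl2fastq 2.17, DESeq2 1.36.0 and featureCounts 2.0.1. Whether featureCounts used strand is not given in those notes. The authors deposited TPM values for 48537 genes, and their log2 fold changes were not used here because the file headers number the comparisons without naming the groups. TPM is not a count, so limma 3.58.1 (R 4.3.3) with a trend was fitted to log2(TPM + 1) of all 12 livers where a gene's mean was 1 TPM or more, and on this scale the fold change of genes with little RNA comes out too small. The adjustment was Benjamini-Hochberg over 17957 genes, two-sided, with a threshold of 0.05.

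Each TPM, multiplied by gene length less 199 bases, came out as a whole number of equal steps in its library (tolerance 0.01 reads, 100% of values), which gave the reads used for depth and for voom. Columns were tied to groups by their names. The replicates are labelled as separate livers. No sample was left out or imputed, and 0 columns lacked a sample. The 10 enzymes and the other gene lists were chosen with earlier results of these data known. By rule, all 10 enzymes are named, with the 5 genes most like Lpin2 and the 3 most opposite. From each list of synthesis genes and regulators, the 3 with the smallest p in each comparison with control livers are named. These hold every called gene of the lists. Gk entered through re-expression livers against control livers. Uncalled synthesis genes with a smaller p in the other comparison, such as Cds2 and Acsl5, are not described. Ctdnep1 and Cnep1r1 are named outside this rule, for their action on lipins. Gene positions are those of GENCODE M21 (mm10). Promoter windows were searched on both strands with Python 3.11.15. Alternatives were another pseudocount, other filters and scalings, voom, a replicate block, 8 livers only, and each liver left out.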

Additional observations from a re-analysis of the deposited data

How the results depend on the processing

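In livers labelled DKO against control livers, 2 of the 9 enzymes were called under all 20 alternatives. The log2 difference of Lpin2 ranged over -1.06 to -0.87 (limma adjusted p 8.39e-05 to 0.00961) and that of Agpat2 over 0.53 to 0.68 (0.00352 to 0.0418). Between re-expression livers and livers labelled DKO 0 were called under all 20. Between re-expression livers and control livers 1 enzyme, Lpin2, was called when genes under a mean of 5 TPM were left out (adjusted p = 0.0496), with voom (0.0148) and without replicate 1 of the livers labelled DKO (0.0415), so leaving out a liver gave 0 to 1. Of 540 values of the enzymes, 512 kept direction and side of the threshold, 3 crossed it and 25 changed sign, none of these past 0.0942 in size. Quantile normalization gave 0.0209 for Agpat3, 0.0135 for Gpat4 and 0.0058 for Lpin1 for re-expression livers relative to livers labelled DKO, and -0.0011 for Dgat2 relative to control livers. Leaving out 1 liver at a time gave -0.0432 to 0.1608 for Acsl1, -0.0717 to 0.0451 for Agpat3, -0.0491 to 0.1071 for Gpam, -0.0605 to 0.0263 for Gpat4, -0.1461 to 0.0942 for Lpin1 in re-expression livers against livers labelled DKO; -0.0148 to 0.1233 for Dgat1, -3e-04 to 0.216 for Dgat2, -0.1528 to 0.0436 for Lpin3 in livers labelled DKO against control livers; -0.0788 to 0.1374 for Dgat2, -0.0554 to 0.1918 for Lpin3 in re-expression livers against control livers.

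Over all tested genes, the 958 calls in livers labelled DKO against control livers became 559 with only the 8 livers compared and 573 to 922 when 1 liver was left out. The 13 calls in re-expression livers against livers labelled DKO became 20 with 8 livers, 8 with a replicate block, 34 with voom and 5 to 15 when 1 liver was left out. The 327 calls in re-expression livers against control livers became 162 with 8 livers, 209 with a replicate block, 537 with voom and 175 to 332 when 1 liver was left out. The cause of these changes in the counts was not tested. Quantile normalization made 50% of the calls in re-expression livers against livers labelled DKO higher, against 38.5%; this share was 14.3% to 46.7% when 1 liver was left out and rests on few calls throughout. Deviations of livers with the same replicate number were weakly correlated (1 of 12 pairs had a correlation over 0.1, range -0.069 to 0.137). Between control and re-expression livers these correlations were 0.137, 0.038, 0.07 and 0.088, beside -0.126 to 0.039 for different numbers. All same-number pairs with livers labelled DKO were negative. The numbers were not taken as pairs in the main fit, and the replicate block changed no call of an enzyme. At this depth Mogat1 could not be compared by a fold change, and Lpin3 rests on 45 to 85 reads per liver.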

Other observations

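AC110206.1, an antisense RNA gene on the strand opposite to Gpam, was looked at after its values were seen. It shares 0 exonic bases with Gpam. AC110206.1 averaged 22.9 ± 5.63 TPM in re-expression livers, 12.4 ± 2.39 in livers labelled DKO and 31.1 ± 10.8 in control livers (SD, n = 4 each). The log2 difference of livers labelled DKO from control livers was -1.21 (limma adjusted p = 0.0206), while that of Gpam was -0.14 (adjusted p = 0.534). The difference between these 2 values was not tested, and how reads of the 2 strands were counted is not given.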
